A study of Mus musculus with 16 samples.

Results

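Genes that mark new neurons were followed in whole brains of male mice: Sox4, Sox11, Dlx1, Dlx2, Dlx5, Sp8, Dcx, Cd24a, Gpc2 and Igfbpl1. They were chosen by name, 10 of the 34821 gene names on the array, and every non-control probe annotated to one of them was taken, with no measured value in the rule. The names were, however, chosen with earlier results of these data known. The array held 17 such probes among 55681 distinct probes, and 14 of the 17, with at least 1 for each of the 10 genes, passed the filter on dim signals, as did 33072 of all probes. The study profiled 16 brains on 1-colour Agilent mouse arrays, in 4 groups of 4 that its design text calls biological replicates. The groups were Slc5a8-deficient mice of 18 months, wild-type mice of 18 months, Slc5a8-deficient mice of 4 months and wild-type mice of 4 months. The labels give C57BL/6J for all of them, under the tag for age, and say nothing of how the deficient allele was made or of any treatment.

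New neurons arise in the adult rodent brain from astrocyte-like stem cells of the subventricular zone beside the lateral ventricle and of the hippocampal dentate gyrus. The stem cells give rise to dividing progenitors and these to neuroblasts, immature neurons that in the first zone migrate along the rostral migratory stream to the olfactory bulb and become interneurons there. The rate of this neurogenesis is known to decline with age in mice. Neuroblasts are a small part of the whole brain, and several of these genes are also used by other cells: Sox4, Sox11, Dlx1, Dlx2 and Cd24a transcripts are not limited to neuroblasts in the adult brain. Fewer cells of a type and less RNA per cell cannot be told apart in such samples.

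All levels are log2 signals relative to the 75th percentile of the same array, so that 0 is that percentile. A level belongs to its probe and is not set against the level of another probe. Differences are log2 differences ± SE from a limma fit of all 16 arrays, with n = 4 arrays per group, and a probe is said to have risen or fallen, or to be called, when its p-value adjusted by Benjamini and Hochberg over all 33072 probes was under 0.05. Comparisons of the same groups share arrays.

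Between 58.4% and 66.1% of the spots of an array were well above background. The signal at the 75th percentile was 624.3 on the dimmest and 1346 on the brightest array. All deficient arrays lay on 1 slide and all wild-type arrays on another, so genotype and slide cannot be told apart. Within a genotype each age had its own row of the slide, while the age difference averaged over the genotypes was balanced for row. The single Slc5a8 probe was well above background on 0 of 16 arrays, in wild-type mice too, so it did not check the genotype labels. Array 1 of the 4-month deficient group stood apart on the first principal component (28.7% of the variance). That array was the lowest of all 16 for 7 of the 14 kept probes (Dcx, both Sox11 probes, Dlx1, Dlx2, Dlx5 and 1 of the Sp8 probes) and the highest for 2 (a Sox4 probe and the other Sp8 probe). Each call of these 14 probes is therefore also given without it. Where a call reported below for the lists of other genes was lost without it, this is stated. The tissue markers Snap25, Syt1, Rbfox3 and Map2 were well above background on all 16 arrays.

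Sequences are shown for the probes under the threshold in some comparison, the kept Dcx probe and a Dlx1 probe at background on all arrays. Each probe has 60 bases, and the first 30 are printed, except for the Sox4 probe in the coding sequence of the HMG box, the DNA-binding domain of Sox proteins, which is printed whole. Positions are those of the scanner files (NCBI37/mm9).
Sox4 A_55_P2131899, chr13:29044482-29044541, minus strand, 60 bases: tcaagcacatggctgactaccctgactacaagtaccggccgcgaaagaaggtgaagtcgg
Sox4 A_55_P2121613, chr13:29042856-29042915, minus strand: ttttctgcaatgaagacagaaagaaggctc
Sox4 A_55_P2121608, chr13:29040826-29040885, minus strand: aatcctgtccgtcactgcctgtcaggttgt
Dlx5 A_51_P261051, chr6:6828063-6828122, minus strand: gtgttgtgctggtttagaaatcagaaagaa
Dlx1 A_55_P1973623, chr2:71367411-71367470, plus strand: cgcgactccgcgatccagagaccgcggccg
Dcx A_52_P244349, chrX:140290854-140290913, minus strand: ataaaaagaaaagcaaaacagagatgtgcg
Gpc2 A_51_P185627, chr5:138715328-138715387, minus strand: ccaattaatggggtgggaggtagatgggtt
The Dlx1 probe above matched the genome from 91 to 32 bases before the Dlx1 start of RefSeq (GRCm38.p6). It was well above background on 0 of 16 arrays, whereas the other Dlx1 probe was so on all 16. The scanner files assign A_55_P2121608, the Sox4 probe farthest downstream, to an Ensembl transcript and the other Sox4 probes to the RefSeq transcript.

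Sox4 was lower at 18 months than at 4 months with all 3 of its probes. Sox4 is a transcription factor of the SoxC group that acts in neuronal differentiation, together with its relative Sox11. With probe A_55_P2121608, Sox4 levels were 1.16, 1.39, 1.18 and 1.41 in 18-month deficient mice, against 1.63, 1.78, 1.81 and 1.69 in 4-month deficient mice. They were 1.30, 1.38, 1.39 and 1.41 in 18-month wild-type mice, against 1.65, 1.95, 1.77 and 1.80 in 4-month wild-type mice. Every 18-month array lay below every 4-month array in both genotypes. Averaged over the genotypes, Sox4 fell by 0.43 ± 0.07 with this probe (adjusted p = 0.00338), which is 1.35-fold lower. The call was made in each of the 24 alternative fits that tested it, and without the array that stood apart the difference was -0.45 ± 0.06 (adjusted p = 0.00236).

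The other Sox4 probes gave the same direction. With A_55_P2121613 the levels were -0.33, -0.13, -0.36 and -0.16 in 18-month deficient mice, against 0.72, 0.28, 0.19 and 0.09 in 4-month deficient mice. In wild-type mice they were -0.18, -0.02, -0.24 and -0.16 at 18 months, against 0.09, 0.18, 0.09 and 0.41 at 4 months. Again no array of 1 age overlapped the other age within a genotype. The averaged difference was -0.45 ± 0.09 (adjusted p = 0.0228), and -0.39 ± 0.07 (adjusted p = 0.0123) without the array that stood apart. Leaving out array 1 of the 18-month deficient group ended this call (-0.44, adjusted p = 0.0551), as did using no filter on dim probes (adjusted p = 0.0681).

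The HMG-box probe A_55_P2131899 gave -0.53 ± 0.12 on average (adjusted p = 0.044). Its levels were -3.51, -3.32, -3.03 and -3.03 in 18-month deficient mice, against -2.33, -2.26, -2.53 and -2.66 in 4-month deficient mice. In wild-type mice, where the ages overlapped, they were -3.05, -2.83, -2.59 and -3.15 at 18 months, against -2.48, -2.87, -2.89 and -2.23 at 4 months. Its averaged call was made in 6 of 22 alternative fits, 3 of them among the 16 that leave out 1 array, and the adjusted p was 0.0656 without the array that stood apart.

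Across the 14 kept probes, these 3 Sox4 probes were the ones called in the averaged age comparison, all lower, and 0 were called higher. Of all 33072 probes, 0.822% were called lower in that comparison. The unadjusted p was under 0.05 for 6 of the 14 probes. The median difference of the 14 was -0.04, and the median of all probes was -0.00. The age difference in Sox4 was of similar size in both genotypes with A_55_P2121608, at -0.44 ± 0.09 in deficient mice (adjusted p = 0.0247) and -0.42 ± 0.09 in wild-type mice (adjusted p = 0.079). The second value was below the threshold without the array that stood apart (adjusted p = 0.0493). The interaction of age and genotype was -0.02 ± 0.13 for this probe (95% interval -0.30 to 0.26), and the intervals were -0.61 to 0.17 for A_55_P2121613 and -1.01 to 0.03 for A_55_P2131899. Without the array that stood apart, A_55_P2121613 gave -0.43 ± 0.10 in deficient and -0.34 ± 0.09 in wild-type mice (adjusted p = 0.0576 and 0.184). A_55_P2131899 then gave -0.74 ± 0.19 and -0.28 ± 0.17 (adjusted p = 0.0739 and 0.756).

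**Figure D1:**
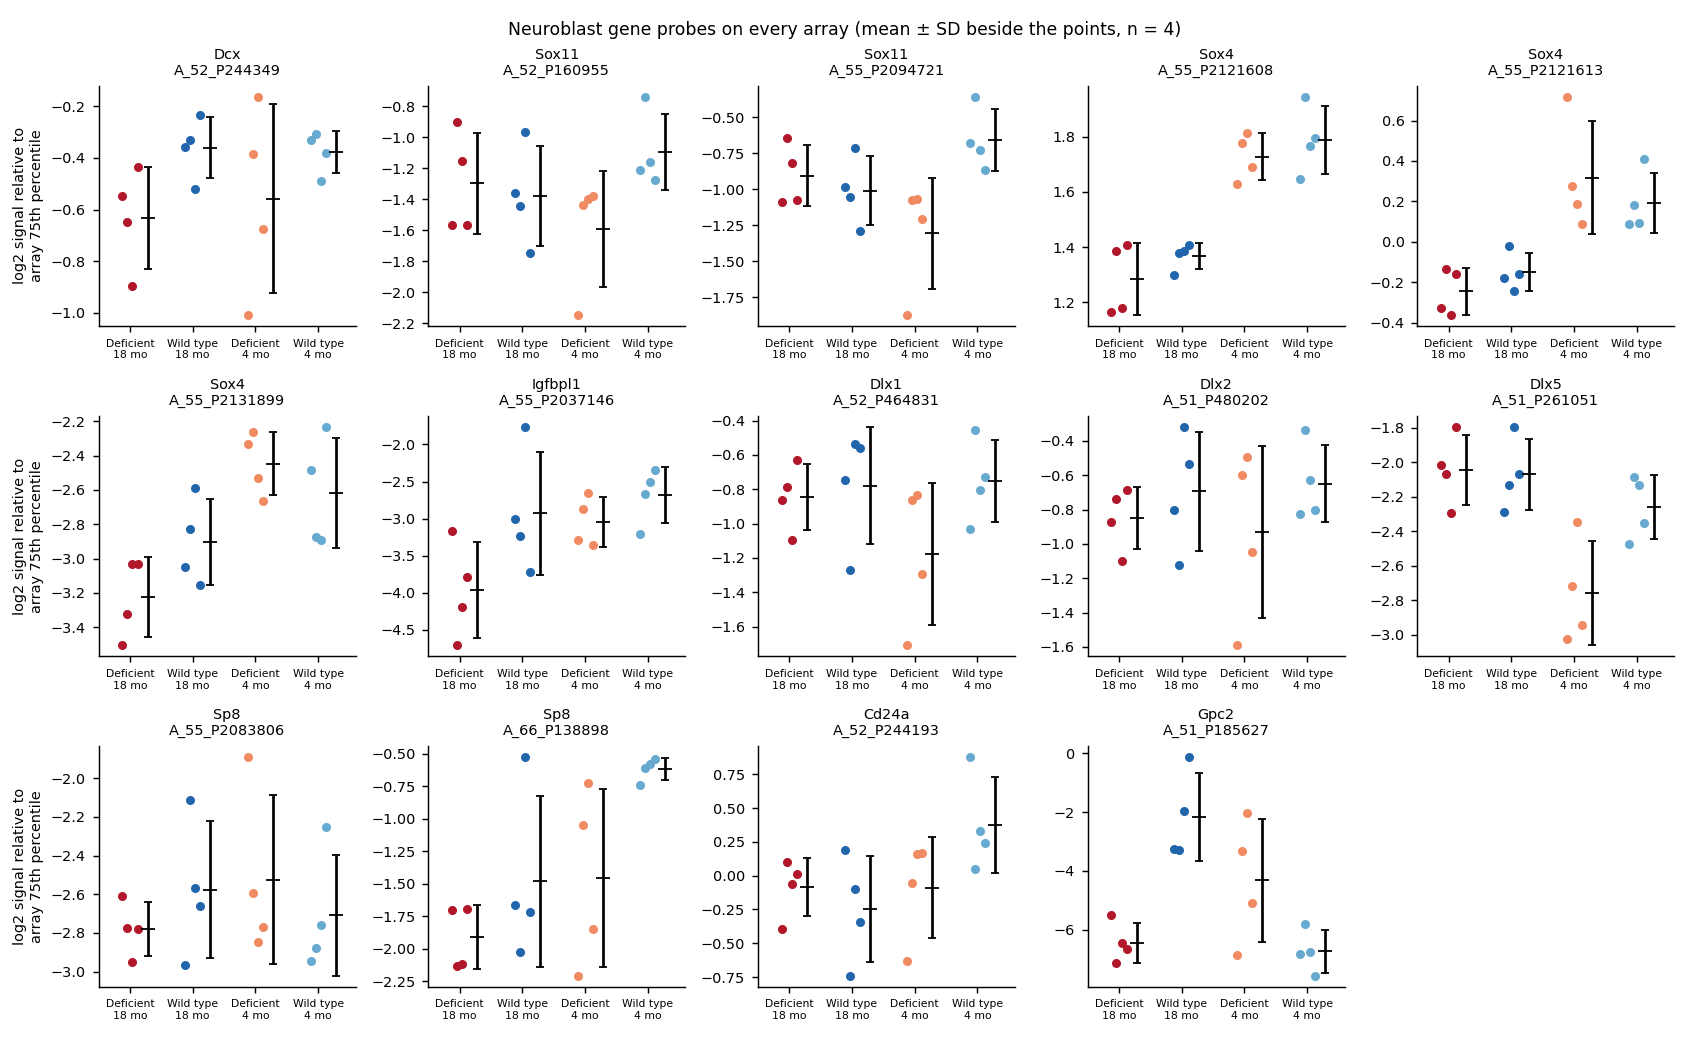
Levels of the 14 kept probes on every array, as log2 signal relative to the 75th percentile of the array, with each panel on its own scale; points are arrays, and the mean ± SD (n = 4) stands beside them. In the 3 Sox4 panels the means of the 18-month groups lie below those of the 4-month groups, with overlapping wild-type arrays for A_55_P2131899, and the Gpc2 panel shows 18-month wild-type arrays between -3.30 and -0.13, above all arrays of 18-month deficient mice.

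In deficient mice alone, 4 of the 14 probes were called between 18 and 4 months: 1 was higher, Dlx5, and 3 were lower, the Sox4 probes. Of all probes, 1.17% were called higher and 0.934% lower in this comparison. The same 4 probes had groups that did not overlap, as did 17.4% of all probes. The unadjusted p was under 0.05 for 7 probes, and the median difference was -0.16. The count of 4 depended on single deficient arrays: without 1 of the 18-month arrays it was 0 or 1, and without array 1, 2, 3 or 4 of the 4-month group it was 1, 0, 2 or 3. In the fit of the 2 deficient groups alone it was 0. For Sox4 the values in deficient mice were -0.56 ± 0.13 with A_55_P2121613 (adjusted p = 0.0377) and -0.77 ± 0.17 with A_55_P2131899 (adjusted p = 0.0338), which were 0.0576 and 0.0739 as adjusted p without the array that stood apart, where A_55_P2121608 gave -0.48 ± 0.09 (adjusted p = 0.0248).

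Sox11, the relative of Sox4, was not called with age. With probe A_55_P2094721 its levels were -1.09, -0.64, -0.81 and -1.07 in 18-month deficient mice and -0.98, -1.05, -0.71 and -1.29 in 18-month wild-type mice. They were -1.87, -1.07, -1.07 and -1.21 in 4-month deficient mice and -0.68, -0.36, -0.72 and -0.87 in 4-month wild-type mice. The averaged age difference was 0.02 ± 0.13 (95% interval -0.25 to 0.30, adjusted p = 0.939). That average joins opposite directions. The means were -0.90 at 18 and -1.31 at 4 months in deficient mice, but -1.01 and -0.66 in wild-type mice. Without the array that stood apart, the age differences were 0.21 ± 0.15 and -0.35 ± 0.14 (adjusted p = 0.557 and 0.494). The interaction was then 0.56 ± 0.21 (adjusted p = 0.375). With the second probe, A_52_P160955, the averaged age difference was 0.01 ± 0.15 (adjusted p = 0.99), and its means had the same opposite directions.

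At 4 months, all deficient arrays lay below all wild-type arrays with both Sox11 probes. The differences were -0.65 ± 0.18 (adjusted p = 0.0956) and -0.50 ± 0.21 (adjusted p = 0.252), neither of which passed the threshold, and without the array that stood apart they were -0.46 and -0.31 (adjusted p = 0.169 and 0.473). At 18 months the Sox11 values were 0.11 ± 0.18 and 0.08 ± 0.21 (adjusted p = 0.937 and 0.958).

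The Dlx genes encode homeobox factors of forebrain interneurons and of the neuroblasts that supply the olfactory bulb. Dlx5 rose with age in deficient mice. Its levels were -2.02, -2.07, -2.29 and -1.79 in 18-month deficient mice, against -3.02, -2.72, -2.34 and -2.94 in 4-month deficient mice. In wild-type mice they were -2.29, -2.13, -1.79 and -2.07 at 18 months, against -2.47, -2.08, -2.13 and -2.35 at 4 months. Arrays 1, 2 and 4 of the 4-month deficient group lay below all other arrays, array 3 lay among those of 4-month wild-type mice, and the other 3 groups overlapped. The difference in deficient mice was 0.71 ± 0.16 (adjusted p = 0.0348), which is 1.64-fold higher, and 0.63 (adjusted p = 0.0808) without the array that stood apart. This call was made in 15 of 25 alternative fits. It was not made with normexp correction, no filter on dim probes or the replicate block (adjusted p = 0.0661, 0.0965 and 0.0525). Nor was it made in the fit of the deficient groups alone (adjusted p = 0.104). In wild-type mice it was 0.19 ± 0.16 (95% interval -0.15 to 0.53), and the interaction was 0.52 ± 0.23 (adjusted p = 0.432). The averaged age difference was 0.45 ± 0.11 (adjusted p = 0.0636).

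Dlx1 and Dlx2, neighbouring genes transcribed toward each other on chromosome 2, were called in no comparison. Dlx1 averaged -0.84 ± 0.19 in 18-month deficient mice, -0.78 ± 0.34 in 18-month wild-type mice, -1.17 ± 0.41 in 4-month deficient mice and -0.75 ± 0.24 in 4-month wild-type mice (SD, n = 4 each). Dlx2 averaged -0.85 ± 0.18, -0.69 ± 0.35, -0.93 ± 0.50 and -0.65 ± 0.23 in the groups in that order. All 4 groups overlapped in both genes, and the averaged age differences were 0.15 ± 0.15 for Dlx1 (95% interval -0.16 to 0.47) and 0.02 ± 0.16 for Dlx2 (95% interval -0.32 to 0.36).

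Sp8 encodes a zinc-finger factor needed for a class of olfactory bulb interneurons, and its 2 probes differed. With A_66_P138898 the levels were -1.70, -2.13, -2.12 and -1.69 in 18-month deficient mice and -1.66, -2.02, -0.53 and -1.71 in 18-month wild-type mice. They were -2.21, -1.05, -0.73 and -1.85 in 4-month deficient mice and -0.74, -0.61, -0.58 and -0.54 in 4-month wild-type mice. The 4-month wild-type arrays were close together and high, yet 1 array of 18-month wild-type mice and 1 of 4-month deficient mice reached them. The averaged age difference was -0.66 ± 0.23 (adjusted p = 0.184). With A_55_P2083806, which lies upstream in the transcript, it was -0.06 ± 0.15 (95% interval -0.39 to 0.27, adjusted p = 0.869).

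Dcx encodes doublecortin, the microtubule-binding protein by which neuroblasts are usually stained. Only 1 of its 3 probes, A_52_P244349, was kept. Its levels were -0.55, -0.65, -0.90 and -0.43 in 18-month deficient mice and -0.36, -0.33, -0.52 and -0.23 in 18-month wild-type mice. They were -1.01, -0.39, -0.16 and -0.67 in 4-month deficient mice and -0.33, -0.31, -0.49 and -0.38 in 4-month wild-type mice. In order of their means, the highest being -0.36 in 18-month wild-type mice and the lowest -0.63 in 18-month deficient mice, no neighbouring groups differed beyond their spread.

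The averaged age difference of Dcx was -0.03 ± 0.11, with a 95% interval of -0.26 to 0.20 (adjusted p = 0.915), an interval that does not reach the value of the called Sox4 probe A_55_P2121608, -0.43. The averaged genotype difference was -0.23 ± 0.11 (adjusted p = 0.35). The other Dcx probes lie upstream of the kept probe in the direction of transcription. A_52_P506493 was well above background on 0 of 16 arrays, and A_55_P2080126 on 9 of 16 with no group complete. On array 4 of the 4-month wild-type group A_55_P2080126 gave -0.57, while its other 15 levels lay between -6.92 and -4.71.

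Cd24a encodes a surface glycoprotein of immature neurons, which ependymal and blood cells carry too. Its levels were -0.40, 0.10, -0.06 and 0.01 in 18-month deficient mice and 0.19, -0.74, -0.10 and -0.34 in 18-month wild-type mice. They were -0.63, -0.06, 0.16 and 0.17 in 4-month deficient mice and 0.88, 0.05, 0.33 and 0.24 in 4-month wild-type mice. All 4 groups overlapped. The age difference was -0.62 ± 0.23 in wild-type mice (adjusted p = 0.535) and 0.00 ± 0.23 in deficient mice (adjusted p = 0.994).

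Igfbpl1 encodes a secreted protein related to the insulin-like growth factor binding proteins. Its levels were -3.16, -4.71, -4.19 and -3.78 in 18-month deficient mice, against -3.00, -3.24, -1.76 and -3.72 in 18-month wild-type mice. They were -3.29, -2.87, -2.65 and -3.35 in 4-month deficient mice, against -3.21, -2.67, -2.51 and -2.34 in 4-month wild-type mice. The lowest values were those of 18-month deficient mice, with overlap. The age difference was -0.92 ± 0.38 in deficient mice (adjusted p = 0.194), and the genotype difference at 18 months was -1.03 ± 0.38 (adjusted p = 0.291).

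Gpc2 encodes a glypican, a heparan sulfate proteoglycan of the surface of developing neurons. Its levels were -5.52, -7.14, -6.45 and -6.67 in 18-month deficient mice, against -3.27, -3.30, -1.96 and -0.13 in 18-month wild-type mice. They were -6.86, -3.31, -2.04 and -5.08 in 4-month deficient mice, against -6.82, -5.82, -6.77 and -7.56 in 4-month wild-type mice. The probe was well above background on 1, 4, 3 and 1 of the 4 arrays of those groups in the same order, so the low levels lie at the limit of detection and the size of each difference depends on the background correction. It passed the filter on dim signals only through 18-month wild-type mice, the group where it was brightest. Comparisons with that group are therefore not independent of the filter, and the values below are given as a description.

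In wild-type mice the age difference of Gpc2 was 4.58 ± 0.88, and no array of the ages overlapped. The adjusted p was 0.0336 among the kept probes and 0.0885 with no filter on dim probes. It was the 1 probe of the 14 under the threshold in wild-type mice, where 0.139% of all probes were called higher, and nothing is read from that count. Groups did not overlap for 1 probe that was higher (Gpc2) and 2 that were lower (Sox4 A_55_P2121608 and A_55_P2121613), as for 3.53% of all probes in either direction. The unadjusted p was under 0.05 for 5 probes, and the median difference was -0.27. At 18 months the difference of Gpc2 between deficient and wild-type mice was -4.28 ± 0.88 (adjusted p = 0.0224, and 0.0587 with no filter). In deficient mice the age difference was -2.12 ± 0.88 (adjusted p = 0.196), and at 4 months the genotype difference was 2.42 ± 0.88 (adjusted p = 0.18). The interaction was -6.70 ± 1.24 (adjusted p = 0.0367, and 0.106 with no filter), the 1 value under the threshold among the 14 probes for that contrast, in which 0.0786% of all probes were called lower.

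Among the kept probes and without the array that stood apart, the same 3 Gpc2 differences were 4.58 ± 0.72 (adjusted p = 0.00803), -4.28 ± 0.72 (adjusted p = 0.00563) and -7.55 ± 1.06 (adjusted p = 0.00447). With normexp background correction they were 1.93, -1.93 and -2.78, and none was called (adjusted p = 0.146, 0.0503 and 0.159). Leaving out array 4 of the 18-month wild-type group, the brightest, gave 3.90, -3.60 and -6.02, none under the threshold (adjusted p = 0.112, 0.0755 and 0.0681). The interaction was under the threshold in 6 of 23 alternative fits, and it cannot be told apart from the row of the slide.

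Between genotypes at 18 months, Gpc2, with the limit given above, was the 1 of the 14 probes under the threshold, where 0.505% of all probes were called lower and 8.04% had groups that did not overlap. At 4 months 0 of the 14 were called (1.43% of all probes), 2 had groups that did not overlap, both Sox11 probes (9.41% of all probes), and 5 had an unadjusted p under 0.05. Averaged over the ages 0 were called (3.12% of all probes), with an unadjusted p under 0.05 for 2. The averaged genotype differences ran from -0.93 to 0.01 with a median of -0.22, and 13 of 14 were below 0, while the median of all probes was 0.02. These probes share the same 16 arrays and the slides, so the count of signs is a description.

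**Figure D2:**
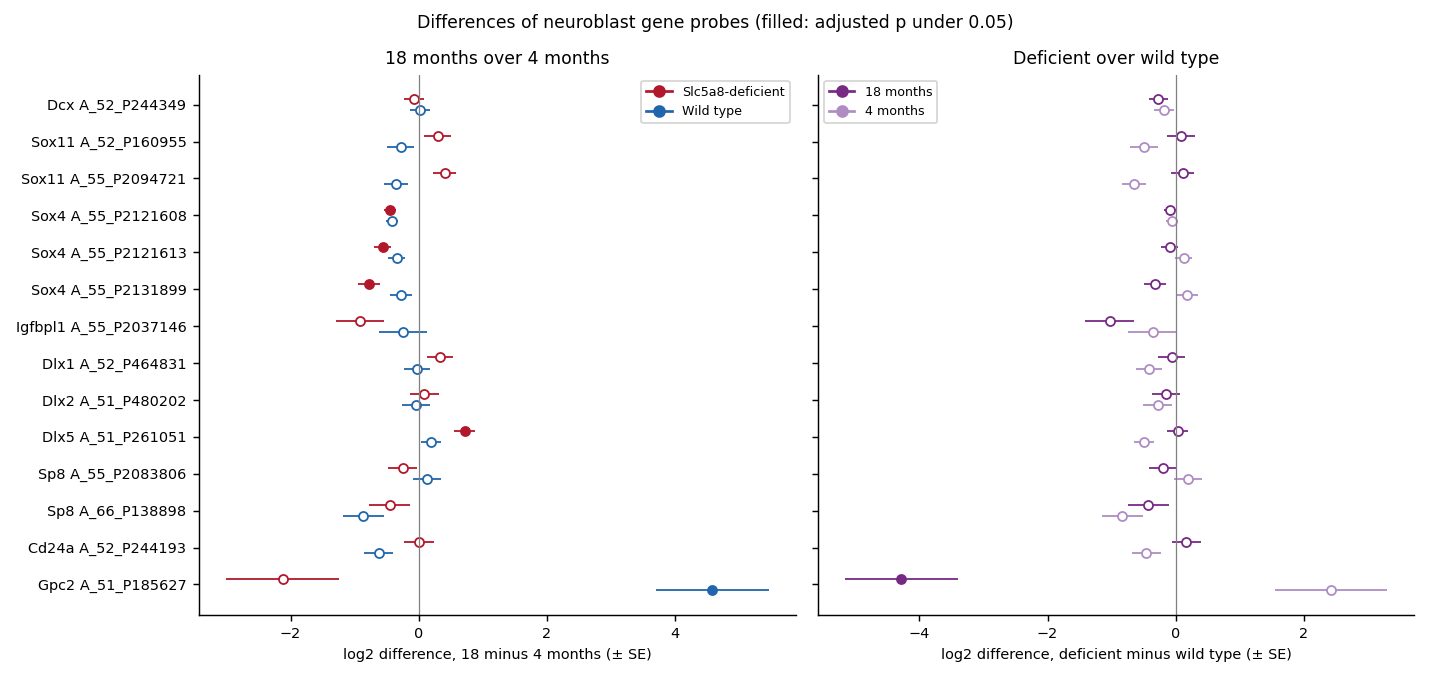
Log2 differences ± SE of the 14 kept probes for 18 over 4 months (left, by genotype) and for deficient over wild-type mice (right, by age), with filled points where the adjusted p was under 0.05. The 3 Sox4 probes and Dlx5 were called in deficient mice, and none of these calls was made with no filter on dim probes. Gpc2, at 4.58 in wild-type mice and -4.28 at 18 months, has filled points that were not called with no filter on dim probes, and a wide error.

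Genes that mark the other steps of neurogenesis were counted from 5 lists, with a gene called if any of its kept probes was. Of the neural stem cell list all 17 genes were kept, and averaged over the genotypes 2 fell with age and 0 rose, against 0.994% of all 23030 genes called lower. They were Fabp7, the fatty acid binding protein of radial glia and astrocytes, and Prom1, a membrane glycoprotein of stem and ependymal cells. Fabp7 levels were 1.22, 1.57, 1.86 and 1.05 in 18-month deficient mice, against 2.74, 3.28, 3.29 and 3.50 in 4-month deficient mice. They were 2.06, 2.42, 2.04 and 2.43 in 18-month wild-type mice, against 3.07, 3.42, 3.06 and 3.03 in 4-month wild-type mice. The ages did not overlap in either genotype, and the averaged difference was -1.35 ± 0.14 (adjusted p = 9.75e-05).

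Prom1 was lower by -0.51 ± 0.08 with its brightest probe (adjusted p = 0.00474) and by -0.42 ± 0.10 with another (adjusted p = 0.043). In deficient mice alone Fabp7 fell by 1.78 and Prom1 by 0.57, and Egfr, the receptor of epidermal growth factor, rose by 0.64 ± 0.16 with its brightest probe (adjusted p = 0.0496). Its other probes were not called, and without the array that stood apart Egfr gave 0.46 (adjusted p = 0.0732). In that comparison 1.47% of all genes were called higher and 1.22% lower. Fabp7 was still called in deficient mice with no filter on dim probes, and Prom1 and Egfr were not. Nes, Sox2, Gfap, Hes1, Vim and the other members did not pass the test, and the median of the list was -0.03 in the averaged comparison, beside -0.01 for all genes.

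Of the list of dividing and committed progenitors 12 of 14 genes were kept (Top2a and Cdk1 were not), and 2 fell with age, Mki67 and Ccnb1, with 0 called higher. Mki67 encodes the nuclear protein Ki-67 of dividing cells. With its brightest probe the levels were -3.78, -4.03, -4.04 and -4.06 in 18-month deficient mice, against -2.80, -2.87, -3.06 and -2.87 in 4-month deficient mice. They were -3.46, -3.91, -3.24 and -4.33 in 18-month wild-type mice, against -3.07, -2.86, -2.96 and -2.91 in 4-month wild-type mice. The 18-month arrays were all below the 4-month arrays. The averaged difference was -0.93 ± 0.13 (adjusted p = 0.0014), with -0.90 ± 0.17 (adjusted p = 0.015) from its second probe. Ccnb1, the cyclin of mitotic entry, gave -1.14 ± 0.17 (adjusted p = 0.00339, and 0.0122 with no filter on dim probes). It passed the filter only through the 4-month groups, where it was higher, and was well above background on 2 of 4 arrays in each 18-month group, so the size of its difference rests partly on signals at the limit of detection. Both were called in deficient mice as well, Mki67 at -1.08 ± 0.18 (adjusted p = 0.00784) and Ccnb1 at -1.29 ± 0.24 (adjusted p = 0.0159). Without the array that stood apart, the genes of both lists called in the averaged comparison were called again.

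Of 21 other genes of immature neurons, among them the tubulins Tubb3 and Tubb2b, the stathmins and the doublecortin-like kinases, 20 were kept. With age 0 were called in the averaged comparison, 16 of 20 were below 0 and the median was -0.13. Calb2, the gene of the calcium-binding protein calretinin, had the smallest p, at -0.58 ± 0.19 (adjusted p = 0.158). Of the 18 genes of olfactory bulb interneurons 0 were called with age, the median was 0.12, and Pbx3 had the smallest p (-0.27 ± 0.09, adjusted p = 0.166). Of 17 niche signals and guidance genes 16 were kept, with 0 called with age and a median of -0.07. In wild-type mice alone 0 genes of the 5 lists were called (0.456% of all genes), the nearest being Fabp7 at -0.91 ± 0.19 (adjusted p = 0.0618).

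**Figure D3:**
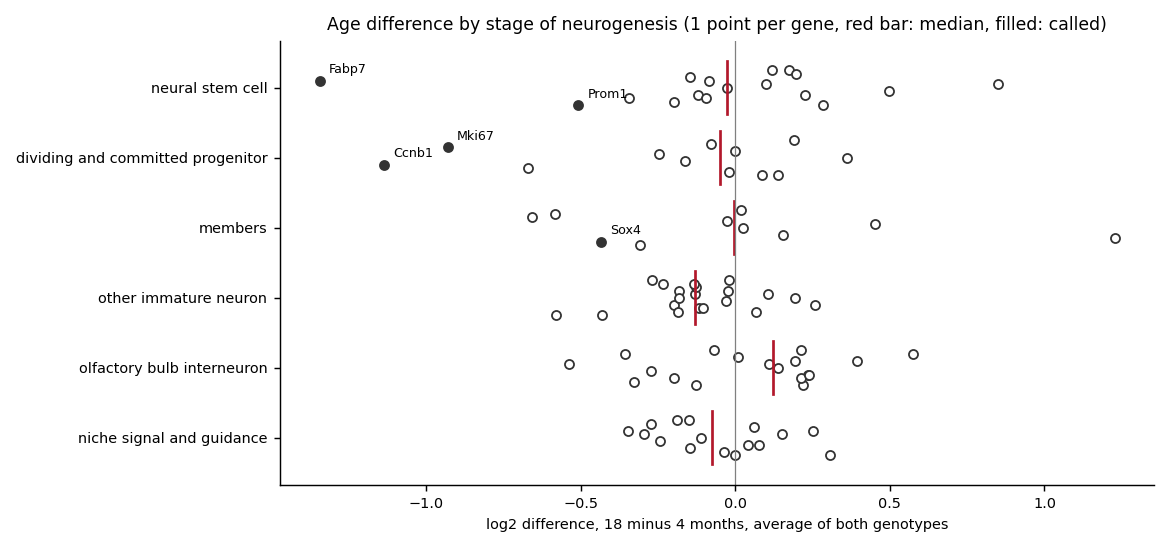
Log2 difference, 18 minus 4 months averaged over the genotypes, of each gene's brightest kept probe in the 10 genes described here (members) and the 5 lists, with red bars at the medians and filled points where the gene was called. Fabp7, Prom1, Mki67, Ccnb1 and Sox4 were called, all below 0, and the lists of immature neurons, interneurons and niche signals held 0 called genes.

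Between genotypes at 18 months, 3 list genes were called, against 1.72% of all genes in either direction. Hes5, a target of Notch in stem cells, was lower in deficient mice (-0.87 ± 0.19, adjusted p = 0.0352). Stmn1, the microtubule regulator stathmin, was lower with its brightest probe (-1.17 ± 0.20, adjusted p = 0.00621). Igf1, a growth factor, was higher by 0.44 ± 0.10 (adjusted p = 0.0352) with a probe that is not its brightest. The brightest Igf1 probe went the other way, with means of -0.49 in 18-month deficient and -0.34 in 18-month wild-type mice. The remaining Igf1 probes had higher means in 18-month deficient mice. Averaged over the ages, Stmn1 (-0.95 ± 0.14, adjusted p = 0.00139) and Prok2, the chemoattractant of neuroblasts in the olfactory bulb (-0.84 ± 0.20, adjusted p = 0.0326), were lower, beside 1.9% of all genes. Without the array that stood apart Prok2 was not called (-0.80, adjusted p = 0.0504), and with no filter on dim probes, over more probes, Hes5, Igf1 and Prok2 were not (adjusted p = 0.092, 0.107 and 0.0791).

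Markers of other cells and tissues differed between the genotypes as well. At 18 months 3 of the 4 kept spinal cord and caudal hindbrain genes were called higher in deficient mice, with a list median of 3.63. Of these 4 genes 0 were well above background on all arrays, so the size of that median rests partly on signals at the limit of detection. With no filter on dim probes Hoxb5 was still called (adjusted p = 0.0181), and Hoxa5 and Hoxc4 were not (adjusted p = 0.109 and 0.0608). The ependymal gene Ccdc153 (-1.74 ± 0.31, adjusted p = 0.00795, 1 of 6 on its list) and the oligodendrocyte precursor gene Gpr17 (-0.58 ± 0.13, adjusted p = 0.0311, 1 of 5) were lower in deficient mice, as were 3 of 5 kept red blood cell genes. With no filter Ccdc153 was called, and Gpr17 (adjusted p = 0.0888) and the red blood cell genes were not. Averaged over the ages, 3 of 5 olfactory epithelium and nerve genes, 1 of 6 ependymal and 2 of 5 oligodendrocyte precursor genes were called lower and 3 of 4 spinal cord and caudal hindbrain genes higher. With no filter 2, 1, 1 and 2 of these genes were called, in that order. At 4 months 2 olfactory epithelium and nerve genes and Ccdc153 were called lower. Without the array that stood apart, the 2 olfactory epithelium and nerve genes at 4 months (S100a5 and Stoml3) and 1 of the 3 averaged over the ages (Omp) were not called. With no filter these calls were lost as well. The part of these markers in the genotype values of Hes5, Stmn1, Igf1, Prok2 and Gpc2 was not tested.

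The brightest Stmn1 probe gave group means of 5.98, 7.15, 6.31 and 7.04 in 18-month deficient, 18-month wild-type, 4-month deficient and 4-month wild-type mice. The other Stmn1 probe gave 6.45, 6.46, 6.49 and 6.32, so the lower value in deficient mice was not shared by both probes. At 4 months and for the interaction 0 genes of the 5 lists were called (1.88% and 0.278% of all genes).

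Markers of neighbouring tissues also differed with age. The 4 markers of olfactory bulb projection neurons (Tbx21, Cdhr1, Doc2g and Eomes) were all lower at 18 months, with a median of -1.05 and 2 called, Tbx21 and Doc2g (-1.42 ± 0.18). Tbx21 passed the filter only through the 4-month groups, where it was higher, and was well above background on 1 of 4 arrays in each 18-month group, so its levels are given in place of a size. They ran from -5.90 to -5.34 in 18-month deficient, -5.76 to -4.89 in 18-month wild-type, -4.53 to -3.27 in 4-month deficient and -3.42 to -2.95 in 4-month wild-type mice. Eomes is also on the list of committed progenitors. Per array, the median of the list relative to each gene's mean ran from -1.03 to -0.25 in 18-month deficient mice, from -0.99 to -0.33 in 18-month wild-type mice, from -0.17 to 0.71 in 4-month deficient mice and from 0.53 to 1.08 in 4-month wild-type mice. Their summed linear level, in units of the 75th percentile, ran from 1.30 to 1.60, 0.916 to 1.24, 1.55 to 2.57 and 2.23 to 3.32 in the same groups. The olfactory epithelium and nerve list had 2 of 5 genes called lower. Its summed level ran from 0.673 to 0.959, 0.774 to 2.33, 1.26 to 1.78 and 4.02 to 6.14 in the same order of groups.

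The 4 kept markers of spinal cord and caudal hindbrain were all called lower at 18 months, with summed levels of 0.457 to 1.23, 0.0169 to 0.306, 1.44 to 4.96 and 0.462 to 2.15 in that order, and Hoxc8 was not kept. Of these 4 genes 0 were well above background on all 16 arrays, so their low values lie at the limit of detection, and with no filter 3 of the 4 were called. Of the pituitary list 6 of 8 genes were kept (Tshb and Pou1f1 were not) and 1 was called lower, with summed levels of 1.29 to 60.5, 1.46 to 3.83, 4.18 to 118 and 2.07 to 283. The called gene, Cga, was not called with no filter (adjusted p = 0.1). With age 0 of 6 ependymal, 0 of 8 choroid plexus and 0 of 3 kept lymphocyte genes were called. Of 5 oligodendrocyte precursor genes 3 were lower and 2 higher. Among them 1 was called lower, Gpr17 (-0.89 ± 0.09, adjusted p = 9.22e-05, and 0.00051 with no filter). The summed levels of that list ran from 12.5 to 14.9, 15.6 to 18.8, 19.4 to 21.6 and 22 to 24.8 in the same order of groups. The part of these markers in the lower values of Sox4, Fabp7, Mki67 and Ccnb1 at 18 months was not tested. Of the 5 kept red blood cell genes all were called lower at 18 months in deficient mice (3 without the array that stood apart, which lost Hba-a1 and Hba-a2), with summed levels of 65.9 to 283, 262 to 468, 279 to 810 and 325 to 480. With no filter on dim probes 0 of the 5 were called.

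**Figure D4:**
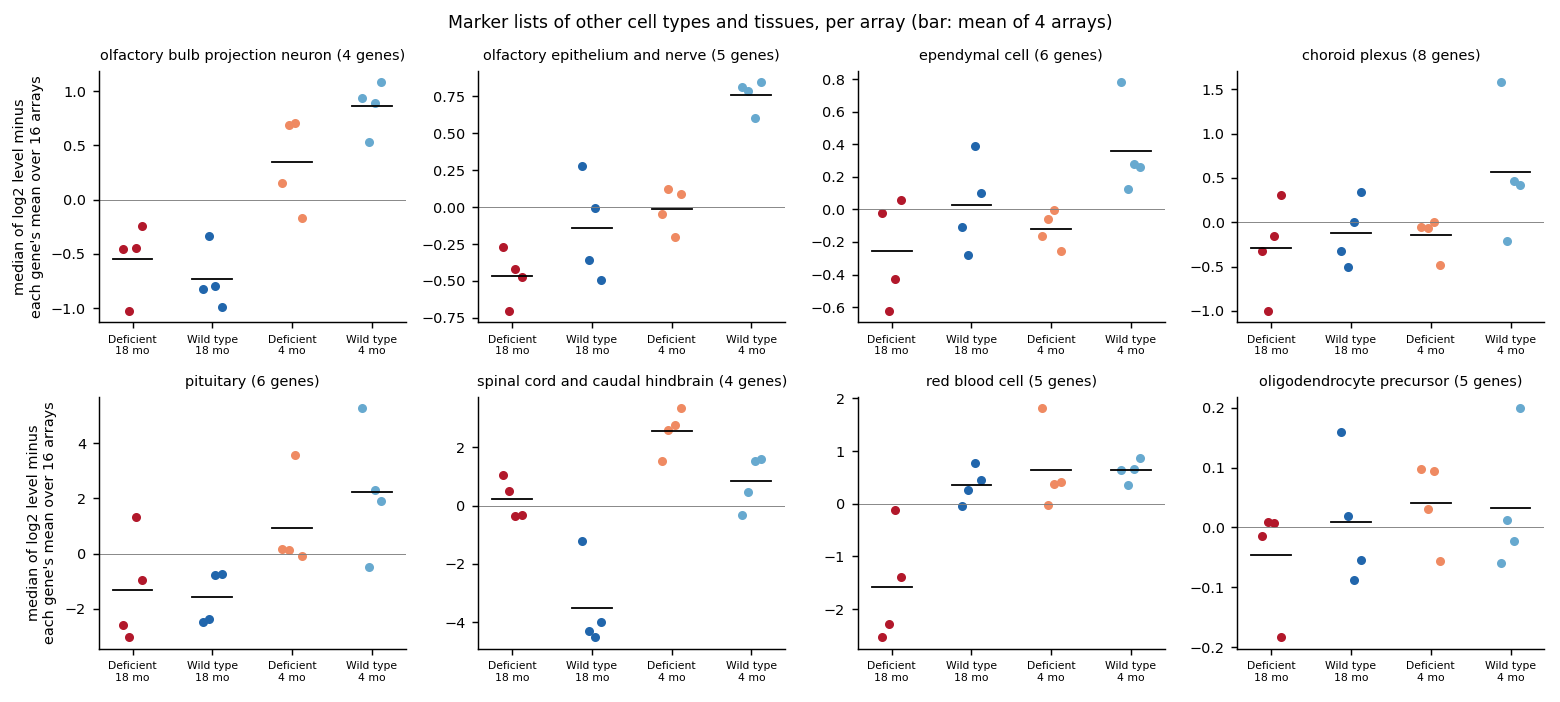
Marker lists of other cell types and tissues on every array, as the median over the list of log2 levels relative to each gene's mean over 16 arrays, with a bar at the mean of 4 arrays. Olfactory bulb projection neuron markers lay below 0 on all 18-month arrays and, on average, at 0.34 in 4-month deficient and 0.86 in 4-month wild-type mice.

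The genes whose levels followed Dcx most closely over the 16 arrays were Dusp26 (r = 0.876), Fgl1 (r = 0.866), Mtmr7 (r = 0.855), Ntsr1 (r = 0.842), Tti2 (r = 0.839) and Rab3a (r = 0.835), out of 13955 genes compared. These are Pearson correlations over arrays that share the slides and the array that stood apart, and they are given as a description. None of these 6 genes was called with age in the averaged comparison. In RefSeq, all of them but Ntsr1 (5 of 6) lie on mouse chromosome 8, whereas Dcx lies on X.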

How the data were processed

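Whole-brain RNA was labelled with Cy3 and hybridised to 1-colour arrays, per the labels' protocols. Per the file headers, the deposited spot intensity came from Agilent Feature Extraction 10.7.3.1 after its background subtraction. The deposited series table holds log2 values whose steps are not given in the sources used here (column medians 6.606 to 6.622, read from their ranks as normalized raw signal). The submitters' processing notes name limma. The members and gene lists were chosen with earlier results of these data known.

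Of 59305 non-control spots per array, the 98 to 182 flagged as outliers were left out and 0 were saturated. Spots of a probe were averaged. Levels are log2 processed signals after subtraction of each array's 75th percentile. A probe was kept where some group had it well above background on each of its 4 arrays. A 4-group means model was fitted with limma 3.58.1 (R 4.3.3 with version 1.17.8 of data.table), with 12 residual and 2.94 prior degrees of freedom, 7 contrasts, and p-values adjusted by Benjamini and Hochberg over all kept probes at 0.05. On simulated data for the averaged age contrast (33047 probes), 86 of 100 changes of 1 and 98 of 100 changes of 2 on the log2 scale were called, as were 12 unchanged probes. The simulated spread was independent between arrays, with no array apart, and no change smaller than 1 was simulated. It therefore does not show how often changes of the size of Sox4 would be called. All member probes were named, and from each list the called genes (up to 4) or that with the smallest p. The design text says no more of the replicates than that they are biological, so p-values measure only the spread between these arrays. Alternatives were normexp correction (offset 50), quantile normalization, the deposited values, other probe filters and summaries, the replicate block, fits of 2 groups and leaving out each array. For the lists of other genes, leaving out the array that stood apart and using no filter were added after seeing the data.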

Additional observations from a re-analysis of the deposited data

Results flagged for a closer look

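Of 68 groups of 4 arrays tested over the 17 probes, 1 held an array far from the others by Dixon's test, and chance gives about 1 in 20. It was Sox11 probe A_52_P160955 in 4-month deficient mice, whose array 1 lay at -2.15 while the other 3 lay between -1.44 and -1.38. It is the array that stood apart in the report. The age difference of Gpc2 probe A_51_P185627 differed between the genotypes by the interaction, at -6.70 ± 1.24 (adjusted p = 0.0367 among the kept probes and 0.106 with no filter on dim probes), with an age difference of -2.12 in deficient and 4.58 in wild-type mice. Over its alternatives the interaction ran from -7.55 to -2.78 (adjusted p 0.00447 to 0.159). The probe passed the filter only through 18-month wild-type mice, where it was brightest, so the value is not independent of the filter. The interaction also cannot be told apart from the row of the slide.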

How the results depend on the processing

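The fall of Sox4 averaged over the genotypes was called with probe A_55_P2121608 in all 24 alternatives that tested it (-0.47 to -0.41, adjusted p 0.00236 to 0.0151), and with A_55_P2121613 in 20 of 22. In the order averaged age, age in deficient mice, age in wild-type mice, genotype at 18 months, genotype at 4 months, averaged genotype and interaction, 3, 4, 1, 1, 0, 0 and 1 of the 14 probes were called. With normexp the counts were 2, 2, 0, 0, 0, 0 and 0, with quantile normalization 3, 4, 0, 1, 0, 0 and 0, and with the deposited values 4, 4, 0, 1, 1, 0 and 0, where Dlx5 was called in the averaged age comparison (0.37, adjusted p = 0.045) and at 4 months (-0.50, adjusted p = 0.047). With only probes above background on all 16 arrays, which leaves Gpc2 out, they were 3, 4, 0, 0, 0, 0 and 0. Without the filter, over more probes, they were 1, 0, 0, 0, 0, 0 and 0. With 1 probe per gene, and with the mean of a gene's probes, they were 1, 2, 1, 1, 0, 0 and 1, since the Sox4 probes then count once. Fitting only the 2 groups compared gave 0 and 1 for age in deficient and wild-type mice and 1 and 0 for genotype at 18 and 4 months. The cause of the other changes was not tested. Signal over background limits Gpc2, well above it on 9 of 16 arrays. Leaving out 1 array gave 1 to 3, 0 to 4, 0 to 2, 0 to 1, 0, 0 and 0 to 1 called probes.

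With the replicate number as a block the counts were 2, 1, 0, 0, 0, 0 and 0. Deviations of arrays with the same number correlated between -0.419 and 0.248 (median 0.0247, 6 of 24 over 0.1). With different numbers the correlations ran from -0.488 to 0.627 (15 of 72 over 0.1). Arrays with the same number also lay in the same column of their slide, so the block stands for column too.

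Sign changes occurred only in uncalled differences, the largest of them 0.249 in size. With normexp they were Dlx2 (-0.0028) and Sox11 A_52_P160955 (-0.0238) for averaged age and Dlx5 at 18 months (-0.0149), which was also negative with quantile normalization (-0.0078) and the deposited table (-0.0574). The Sox4 A_55_P2121608 interaction was 0.0075 with quantile normalization, Dcx in wild-type mice with age -0.0381 with the deposited table, and Sox4 at 4 months 0.0782 with the mean of its probes. Leaving out 1 array changed the sign of 24 of 98 differences. For averaged age the ranges were -0.0903 to 0.0928 (Dlx2), -0.0877 to 0.0667 (Sox11 A_52_P160955), -0.0703 to 0.0745 (Sox11 A_55_P2094721), -0.104 to 0.0372 (Dcx) and -0.138 to 0.0447 (Sp8 A_55_P2083806). For age in deficient mice they were -0.136 to 0.231 (Dlx2), -0.177 to 0.107 (Cd24a) and -0.224 to 0.0579 (Dcx). For age in wild-type mice they were -0.170 to 0.0981 (Dlx2), -0.0258 to 0.0692 (Dcx), -0.116 to 0.140 (Dlx1), -0.638 to 0.0133 (Igfbpl1) and -0.0221 to 0.284 (Sp8 A_55_P2083806). For genotype at 18 months they were -0.0559 to 0.119 (Dlx5), -0.0496 to 0.222 (Sox11 A_52_P160955), -0.0014 to 0.308 (Cd24a) and -0.229 to 0.0185 (Dlx1). For genotype at 4 months they were -0.0278 to 0.335 (Sp8 A_55_P2083806) and -0.0098 to 0.201 (Sox4 A_55_P2121613), and averaged -0.115 to 0.0676 and -0.0528 to 0.0525 for the same probes. For the interaction they were -0.0909 to 0.275 (Dlx2), -0.241 to 0.0414 (Dcx) and -0.0748 to 0.0248 (Sox4 A_55_P2121608).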
